A study of Homo sapiens with 4 samples.

Results

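ChIP-seq, the sequencing of DNA pulled down with an antibody, mapped the oestrogen-related receptor ERRα in MDA-MB-231 cells, a widely used human line of triple-negative breast cancer. The summits described here are those at an end of exactly 1 protein-coding gene. The series holds 2 ERRα ChIP libraries and 2 input libraries of sheared chromatin without antibody. No treatment or genetic change is named for any of them, and all come from cell cultures fixed with 1% formaldehyde. Per the labels, ChIP libraries gave about 29000000 reads and inputs about 10000000.

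Of 10026 peaks matched between the ChIP replicates on chromosomes 1 to 22 and X, 1248 (12.4%, exact 95% interval 11.8 to 13.1) had their summit within 1 kb of the lower or upper coordinate of 1 protein-coding gene and of no other. A further 281 lay at the ends of 2 or more protein-coding genes, and 8497 lay at none. The 1248 summits were found at 1221 of 19974 protein-coding genes. The choice used positions only. All 1248 were followed through the text, and none was removed for a low value. The heights given below are fold enrichments, the authors' ratio of ChIP signal over the local input background at the summit, in replicate 1 and replicate 2. Where several peaks of a replicate were merged into 1 matched peak, at 17 members in replicate 1 and 8 in replicate 2, the deposited value is the sum of their folds, and this is said at the genes named.

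A gene's start is where its transcription begins and its promoter lies, and its end is where the finished RNA is cut and, in most genes, polyadenylated. ERRα is an orphan nuclear receptor, active without a known hormone, that binds DNA at the ERR response element TCAAGGTCA. Its last 7 letters, AAGGTCA, are called the short ERR site here. It is best known for driving genes of mitochondrial energy metabolism together with the PGC-1 coactivators. The strand of a gene, needed to tell its start from its end, was known for 15812 of the 19974 protein-coding genes (79.2%).

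The stretches that follow show what lay under strong start summits. They are the 6 strongest start summits with both the summit and a short site in the 250 bases upstream of the gene's outermost start, and the 2 strongest with the summit in those bases and no short site in the window. Each is written 5′ to 3′ on the strand of its gene (RefSeq, GRCh38.p14), with the short site AAGGTCA, or its reverse complement TGACCTT, in capitals. ITFG2 lies at chr12:2812418-2812467 on the plus strand, TRAP1 at chr16:3717700-3717774 on the minus strand and NDUFS7 at chr19:1383721-1383885 on the plus strand. SNX6 lies at chr14:34630284-34630347 on the minus strand, ZNF527 at chr19:37370878-37370935 and CCDC174 at chr3:14651579-14651619, both on the plus strand. The pair without a short site are AIFM2 at chr10:70132915-70132984 and HSPA9 at chr5:138575594-138575651, both on the minus strand.
ITFG2: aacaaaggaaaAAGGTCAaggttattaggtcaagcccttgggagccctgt
TRAP1: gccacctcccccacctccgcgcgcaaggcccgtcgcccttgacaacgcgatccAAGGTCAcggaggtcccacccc
NDUFS7: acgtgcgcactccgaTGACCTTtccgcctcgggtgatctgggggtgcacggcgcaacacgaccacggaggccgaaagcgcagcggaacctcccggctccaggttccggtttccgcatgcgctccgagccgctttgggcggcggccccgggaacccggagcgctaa
SNX6: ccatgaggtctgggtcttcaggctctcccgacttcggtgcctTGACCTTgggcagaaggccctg
ZNF527: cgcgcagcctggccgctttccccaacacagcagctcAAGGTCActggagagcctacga
CCDC174: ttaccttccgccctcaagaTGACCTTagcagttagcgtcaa
AIFM2: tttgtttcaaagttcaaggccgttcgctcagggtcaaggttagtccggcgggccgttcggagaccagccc
HSPA9: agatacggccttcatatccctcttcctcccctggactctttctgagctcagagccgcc

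The short site nearest to the summit was 21 bp away at ITFG2, 43 bp at TRAP1, 30 bp at SNX6, 24 bp at ZNF527 and 7 bp at CCDC174, measured to the middle base of the site. At NDUFS7 it was 132 bp away, so the summit and the site sat at opposite ends of the stretch. The fold enrichments at these summits were 248 and 254 at ITFG2, 91.0 and 82.4 at TRAP1, and 61.9 and 54.9 at NDUFS7. They were 51.3 and 46.6 at SNX6, 46.6 and 43.8 at ZNF527, and 27.0 and 27.4 at CCDC174. Strong summits were also found without an exact short site in the window. They had 119 and 130 at AIFM2, above all of those just named but ITFG2, and 47.3 and 53.2 at HSPA9, close to SNX6. The AIFM2 stretch holds tcaaggtta, a near match to TCAAGGTCA that was not counted. The HSPA9 summit was 227 bp upstream of the start, and bases more than 250 upstream were not searched. The ZNF527 stretch holds the full 9-base element, since the letters before its short site are those of TCAAGGTCA.

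Where the strand was known, summits lay at gene starts far more often than at gene ends. Of 1033 such summits, 871 (84.3%, 82.0 to 86.5) were within 1 kb of the start, 146 (14.1%, 12.1 to 16.4) were within 1 kb of the end, and 16 (1.55%) were within 1 kb of both, in short genes. For the other 215 the strand was not known, and they are not placed at either. They include all 40 members on chromosome 8, where strand was known for no gene, so that chromosome enters no result on starts or ends. Start summits were found at 862 of the 15812 genes with known strand (5.45%) and end summits at 144 of them (0.911%). The exact intervals cover counting of positions in these lists only, and neighbouring peaks are not independent.

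**Figure D1:**
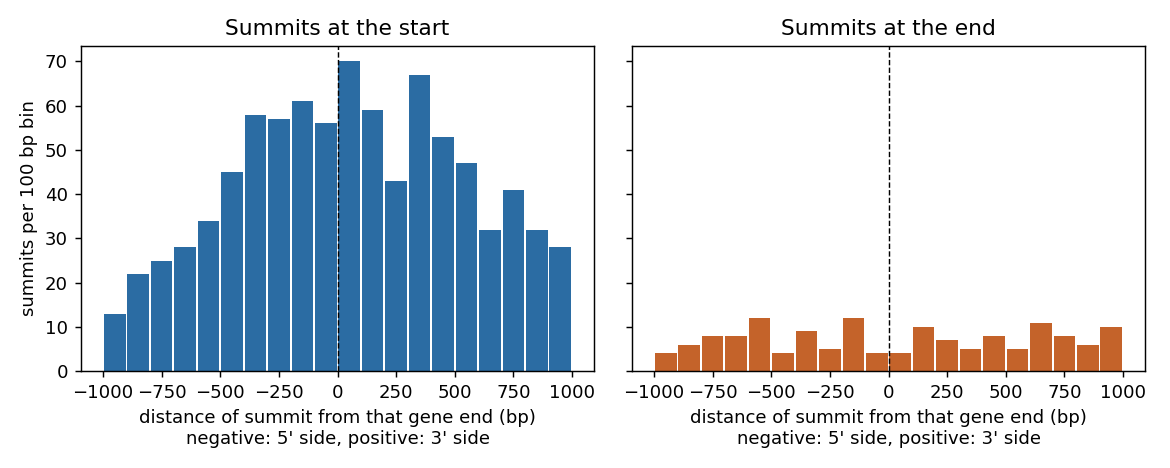
Number of single-gene summits in 100 bp bins of the distance from the gene start (left, 871 summits) or the gene end (right, 146 summits), with negative distances on the 5′ side. The bins at the start range from 13 at the upstream limit to 70 just downstream of the start, and those at the end from 4 to 12 without a centre. The sets differ in size, so bin heights cannot be compared between the panels.

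The summits at starts were spread to both sides of the start. Of the 871, 399 (45.8%, 42.5 to 49.2) lay upstream, outside the gene, and the rest lay within the transcribed part, with a median position 57.0 bp downstream. The central 50% of them ran from 316 bp upstream (-316) to 446 bp downstream, and 569 (65.3%) were within 500 bp. The 100 bp bin just downstream of the start held 70 summits, and the outermost bins held 13 upstream and 28 downstream. Summits at gene ends had no such centre. Of the 146, 72 (49.3%) were inside the gene and 68 (46.6%, 38.3 to 55.0) were within 500 bp, and the 100 bp bins held between 4 and 12.

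Counts of all matched summits around all 15812 genes with known strand gave the same picture over a wider span. Per 1000 genes and 500 bp, there were 26.8 summits just upstream of the start and 28.1 just downstream, against 3.10 at 4500 to 5000 bp upstream and 3.86 at the same distance downstream. At gene ends the bins on either side of the end held 3.79 and 4.05, and the bins out to 5 kb on either side ranged from 3.04 to 5.31. The density at gene ends was thus inside the range of its own surroundings, and the density at starts was not.

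**Figure D2:**
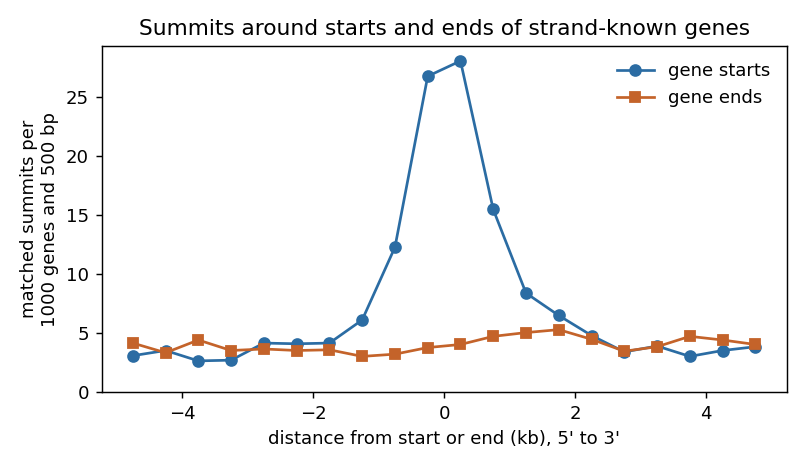
Matched summits per 1000 genes in 500 bp bins of the distance (kb, 5′ to 3′) from the start and the end of 15812 protein-coding genes with known strand, whether or not another gene is near. The line for starts rises to 28.1 beside the start, and that for ends stays between 3.04 and 5.31.

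Peaks at starts and ends had similar median heights. The median fold of start summits was 8.75 in replicate 1 and 8.61 in replicate 2 (mean 8.68 ± 0.104, SD, n = 2), and that of end summits was 8.45 and 8.06 (8.25 ± 0.279, SD, n = 2). All matched peaks had medians of 8.65 and 8.41, and summits at 2 or more genes had 8.33 and 8.20. The start median was the higher in both replicates, by 0.301 and 0.548 (mean 0.425 ± 0.175, SD, n = 2). An exact two-sided permutation test on these 2 paired differences cannot go below p = 0.5, so it cannot pass a threshold. Among summits with an irreproducible discovery rate (IDR) of 0.05 or lower, the median was higher at ends than at starts, 13.9 against 13.3. Mean fold enrichments of 50 or more were reached by 22 of 871 start summits and 5 of 146 end summits, against 233 of all 10026 matched peaks.

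The IDR scores a peak by its ranks in both replicates, and its calls went with peak height as well as with agreement. POLR3B, with similar folds of 4.98 and 5.31, had the lowest score, 154, and ENO1, with 20.2 and 29.8, the highest, 1000. Start summits that passed had a median fold of 13.3, against 8.68 for all start summits. The IDR shares given here and below are thus not separate from height. An IDR of 0.05 was passed by 632 of the 1248 single-gene summits (50.6%, 47.8 to 53.5). This was close to the 50.4% of all 10026 matched peaks. The share was 51.2% at starts (446 of 871), 47.3% at ends (69 of 146) and 50.7% where the strand was not known. Across the 1248 summits, which share their libraries and inputs, the folds of the replicates had a Spearman's rho of 0.873. Their peaks had a median width of 714 bp, against 642 bp for all matched peaks.

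The stronger start summits lay somewhat farther from the start. All matched peaks were put in 5 equal groups by mean fold. In the weakest group, with mean folds up to 6.04, the start summits had a median distance of 330 bp from the start, and 41.5% were within 250 bp of it. In the strongest group, with mean folds of 14.8 and above, the median distance was 390 bp, and 28.3% were within 250 bp. In the groups between, from weaker to stronger, the medians were 329, 372 and 415 bp, so the strongest group was not the farthest. The shares there were 40.9%, 33.5% and 29.2%. The share of starts among start and end summits was 85.5% in the weakest group and 86.8% in the strongest, and single-gene summits made up 10.8% to 14.1% of every group.

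**Figure D3:**
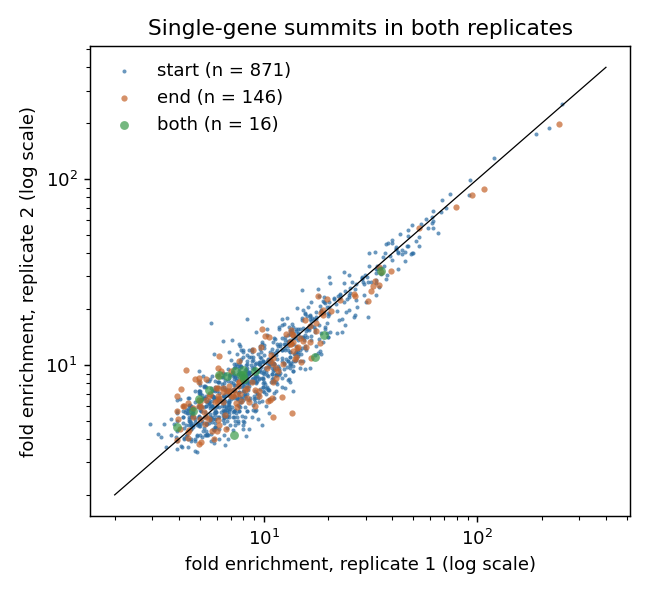
Fold enrichment of single-gene summits in replicate 1 (x axis) and replicate 2 (y axis), both on log scales, coloured by place at the start, the end or both, with a line of equality. Start and end summits cover the same range, and 12 of the 16 summits at both ends lie above the line.

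The strongest start summit was at ITFG2, which encodes a subunit of the KICSTOR complex of amino acid sensing (chromosome 12, summit 215 bp upstream). TKT, the transketolase of the pentose phosphate pathway, followed with 217 and 189 (mean 203 ± 19.8, SD, n = 2), its summit 343 bp upstream. PPIA, the prolyl isomerase cyclophilin A, had 189 and 175, with the summit 410 bp upstream. These 3 stood above all other start summits in both replicates. AIFM2, also known as FSP1, a defence against lipid peroxidation and ferroptosis, came next, with its summit 124 bp upstream. TWF2, an actin-binding twinfilin, had 92.2 and 98.8 at 847 bp downstream, which was the farthest from its start of the 10 strongest.

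Of the other 5 among the 10 strongest, 3 encode mitochondrial proteins. TRAP1, the mitochondrial HSP90 chaperone, had its summit 237 bp upstream. SFXN4, a sideroflexin of the mitochondrial inner membrane, had 71.3 and 70.2, with the summit 264 bp downstream. AFG3L2, a subunit of an inner membrane protease, had 67.5 and 67.0, with the summit 349 bp downstream. FRMD5, a FERM domain protein of cell contacts, had 74.5 and 83.3 at 98 bp upstream, and MIDN, which carries nuclear proteins to the proteasome, had 68.5 and 77.3 at 335 bp downstream. The replicates differed in direction among these summits, replicate 2 being the higher at ITFG2, AIFM2, TWF2, FRMD5 and MIDN.

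The strongest end summit was at FRAT2, a GSK3-binding activator of Wnt signalling. It had folds of 240 and 198 (mean 219 ± 30.1, SD, n = 2), second only to ITFG2 among all 1248. FRAT2 is 2233 bp long, and its summit was 712 bp inside the end and 1520 bp downstream of the start. TRIAP1, a small gene of 2421 bp for an inhibitor of apoptosis, was alike in this, with 79.1 (a sum, the tallest peak having 72.6) and 70.5 at 890 bp inside the end and 1530 bp from the start. Of the 10 strongest end summits 3 were within 2000 bp of the start as well, against 10 of all 146 (6.85%). The uncharacterised genes LOC124904930 (107 and 88.6, 161 bp inside the end) and LOC124903762 (94.2 and 81.8, 725 bp past the end) were also among them.

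The rest of the 10 strongest end summits were in genes longer than FRAT2 and TRIAP1. Their larger distances from the start follow from gene length. LGALS2, which encodes galectin-2, had 53.3 and 54.4 at 305 bp inside its end and 9534 bp from its start. CORO1C, an actin-binding coronin, had 39.3 and 32.1 at 970 bp past its end, 87379 bp from its start. PPP1R9B, the actin and phosphatase scaffold spinophilin, had 35.4 and 31.8 at 811 bp past its end. BAX, an effector of apoptosis, had 34.6 and 26.9 at 638 bp inside its end. ROGDI (34.6 and 33.6, 599 bp inside) and TRIM74 (33.1 and 28.2, 40 bp past the end) complete the 10. Replicate 1 was the higher at 9 of these 10, LGALS2 being the exception. Over all 146 end summits it was higher at 83 (56.8%), and over all matched peaks at 54.4%.

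A further start could lie near an end summit, as for a second promoter or a non-coding gene. The RefSeq table of promoter windows listed a start of the same gene within 1 kb of 1 of the 146 end summits, one of a non-coding gene at 7 and one of another protein-coding gene at 3. At 136 (93.2%, 87.8 to 96.7) it listed none. The choice of members largely sets this share. An end summit lies over 1 kb from its gene's outermost start and from the outermost coordinates of every other protein-coding gene. Only inner starts and starts of non-coding genes could thus be listed, and genes without known strand have no listed start. These 136 had a median mean fold of 8.15, and the other 10 one of 12.9. At start summits, a listed start of the gene itself was within 1 kb at 833 of 871 (95.6%) and a listed start of a non-coding gene at 174 (20%). The first of these shares is largely set by the definition of a start summit. With non-coding genes counted too, 955 of the 1248 summits were at the end of 1 gene alone. Of the 10 strongest start summits, those at ITFG2, PPIA, TWF2 and MIDN were not alone in this sense. Of the 10 strongest end summits, the one at TRIM74 was not.

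The short ERR site was frequent in start windows that held the summit. Of 193 windows, each running from 250 bases before to 50 after a RefSeq start, 47 (24.4%, exact interval 18.5 to 31.0) held AAGGTCA on either strand. All 22012 windows of protein-coding genes held it in 3.21%, and the nearest windows of the 678 start summits that fell outside them in 2.65% (1.58 to 4.16). The sequence under those 678 summits, and under end summits, was not searched. The 2.65% thus describes windows beside the peaks, and the results on sites cover the 193 summits only. The full element TCAAGGTCA, which contains the short site, was in 10 of the 193 (5.18%, 2.51 to 9.32) against 0.245% of all windows. The core AGGTCA, also contained in the short site, was in 83 (43.0%) against 11.9%. With matched peaks that passed IDR 0.05 only, the short site share was 39.8% (29.5 to 50.8).

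Sites of other promoter factors had about the share of all windows. The E-box CACGTG was in 8.29% of the 193 windows (4.81 to 13.1) and 8.32% of all, and the NRF1 core GCATGCGC in 3.63% and 3.71%. The CRE TGACGTCA was in 3.11% and 2.25%, the AP-1 site TGANTCA in 4.66% and 6.16%, and the CCAAT box CCAAT in 32.6% and 34.7%. In each case the share of all windows was inside the exact interval. The median GC content of the 193 windows was 65.0%, against 62.3% of all windows, and the 47 of them with a short site had 62.7%. The 706 windows with a short site among all 22012 had 54.7%. A match here is a run of letters and not a mapped site.

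The short ERR site followed peak height and lay close to the summit. The 193 windows were put in 4 equal groups by mean fold. In the weakest group, with folds up to 5.88, 1 of 49 held it (2.04%, 0.0517 to 10.9). The share was 18.8% in the second group, 39.6% (25.8 to 54.7) in the third and 37.5% (24 to 52.6) in the strongest. Summits with a short site in the window had median folds of 11.0 and 10.5 (mean 10.8 ± 0.397, SD, n = 2), and those without had 7.21 and 6.87 (7.04 ± 0.238, SD, n = 2). Of the 47 with a short site, 35 passed IDR 0.05 (74.5%, 59.7 to 86.1), and of the 146 without, 53 did (36.3%, 28.5 to 44.7). The background for this call is the 50.4% given above. Since the call goes with peak height, these shares are not separate from the median folds just given. The nearest short site was within 25 bp of the summit in 22 windows and within 50 bp in 35, with a median of 27.0 bp, in windows that extend over 300 bases. Most of the 47 windows, 43, held 1 short site and 4 held more.

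**Figure D4:**
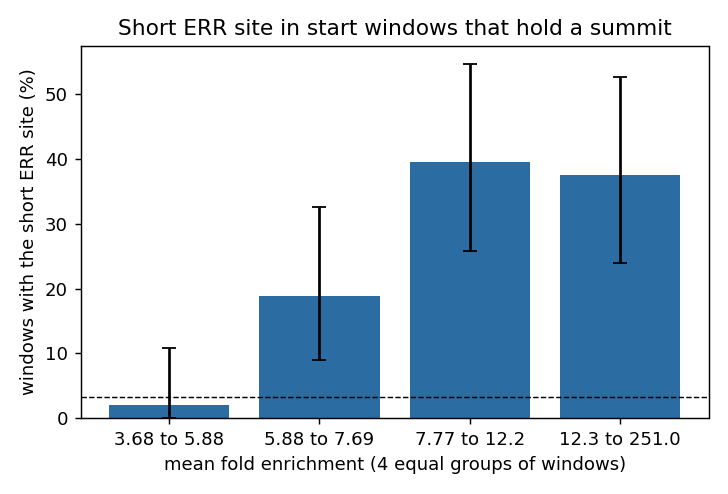
Share of start windows with the summit inside that hold AAGGTCA on either strand (%), in 4 equal groups by mean fold enrichment. Bars are shares with exact 95% intervals, and the dashed line is the 3.21% of all protein-coding windows. The weakest group is at 2.04%, and the third and the strongest are at 39.6% and 37.5%.

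The 10 start summits with the full element in their window, named after their values were seen, ranged from a mean fold of 6.46 to 45.2. After ZNF527, the strongest was TMCO4, a transmembrane protein gene, with folds of 42.4 and 40.2 and a short site 38 bp from the summit. GIPR, the receptor of an incretin hormone, had 30.1 and 21.9. PNPLA4, a lipid hydrolase gene, had 21.3 and 23, and CCDC8 had 13.0 and 13.5 with the short site at the summit itself. FARSA, which encodes a subunit of phenylalanyl-tRNA synthetase, had 11.0 and 8.06. AK3, the mitochondrial GTP:AMP kinase, was the weakest at 6.47 and 6.45.

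Many genes of mitochondrial energy metabolism had a single-gene summit. The group counts here and below leave out the 281 summits at the ends of 2 or more protein-coding genes. A gene counted as without a single-gene summit may thus still have a shared one. Of the respiratory chain and ATP synthase, 40 of 113 genes (35.4%, 26.6 to 45.0) had a single-gene summit, against 6.11% of all protein-coding genes. Almost all with known strand were at starts: 31 genes had a start summit, 1 summit was at an end, and 9 could not be placed. The exception was COX5B, a cytochrome oxidase subunit, which had a start summit (10.3 and 14.5) and a weaker one 596 bp inside its end (7.77 and 6.44). NDUFS7, a complex I subunit, had its summit 36 bp upstream of the outermost start. The 41 summits had a median mean fold of 9.69, against 8.65 over all 1248 members, and 24 passed IDR 0.05, against 50.4% of all matched peaks.

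Other mitochondrial groups were alike. Among enzymes of the citric acid cycle and of pyruvate oxidation, 11 of 25 had a summit (44.0%, 24.4 to 65.1), with 10 at starts and 1 without strand. IDH3A, a subunit of isocitrate dehydrogenase, had its summit 324 bp downstream (25.9 and 27.8), and MPC1, a subunit of the pyruvate carrier, 386 bp upstream (22.7 and 23.7). Import and its chaperones had 11 of 33 (33.3%, 18.0 to 51.8), led by HSPA9, the mitochondrial HSP70, at 227 bp upstream, TIMM10 at 352 bp downstream (29.5 and 23.9) and TIMM50 at 161 bp upstream (18.9 and 22). GRPEL1, a cofactor of that HSP70 (9.02 and 12.4), had no known strand, and the other 10 summits of the import group were at starts. The mitochondrial ribosome had 19 of 78 (24.4%, 15.3 to 35.4), with 13 genes at starts, 2 summits at ends and 1, at the short gene MRPL41, at both.

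The SLC25 carriers of the inner membrane had 8 of 48 (16.7%, 7.48 to 30.2). SLC25A5, an exchanger of ADP and ATP, had 53.3 and 43.9 at 922 bp downstream, and SLC25A39 had 49.6 (a sum, the tallest peak having 35.6) and 39.9 at 970 bp upstream, both near the limit of 1 kb. Fatty acid oxidation had 5 of 28 (17.9%, 6.06 to 36.9), an interval that just reaches the 6.11% of all genes, with CPT1A, which commits fatty acids to import, at 336 bp downstream (15.4 and 13.6). Glycolysis had 7 of 21 (33.3%, 14.6 to 57.0), all at starts. Of these, GAPDH (42.5, a sum with a tallest peak of 37.0, and 40.4), PGAM1 (33.4 and 31.4) and PKM, pyruvate kinase (33.4 and 23.7), had their summits 476, 368 and 290 bp downstream.

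**Figure D5:**
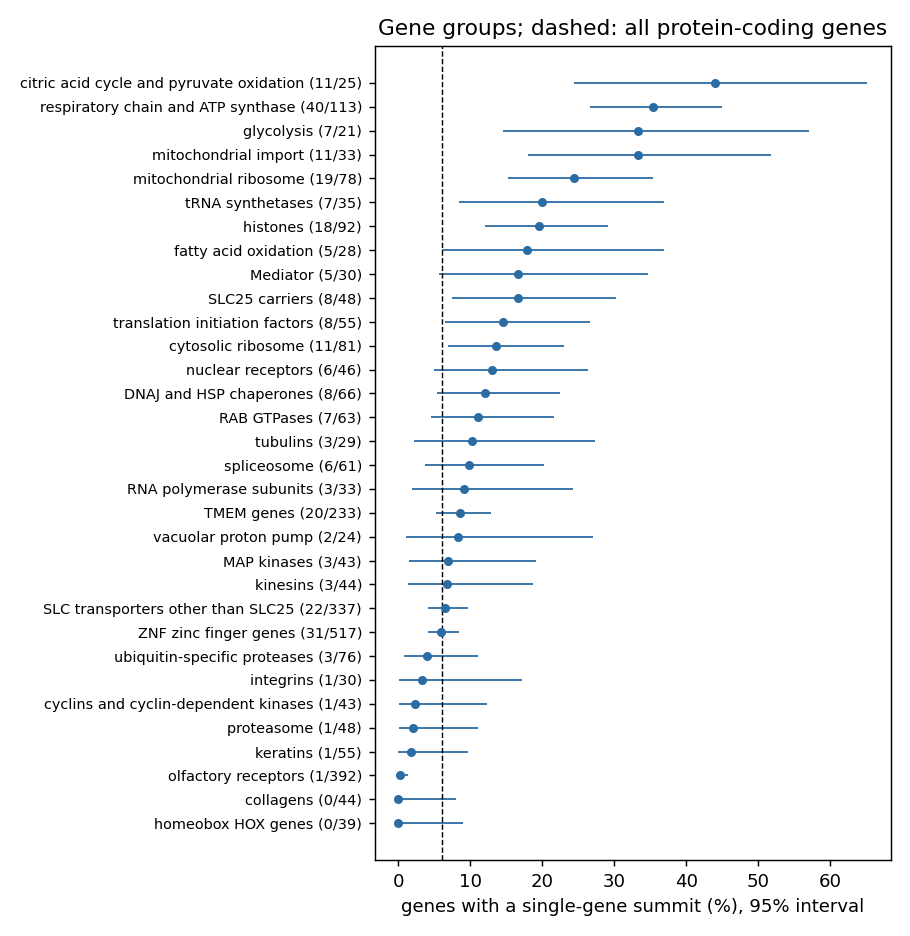
Share of the genes of each group with a summit at an end that is near no other protein-coding gene (%), with exact 95% intervals and the number of genes in brackets. The dashed line is the 6.11% of all protein-coding genes, and the 4 highest shares are those of the citric acid cycle and pyruvate oxidation (44.0%), the respiratory chain and ATP synthase, glycolysis, and mitochondrial import.

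Groups of protein synthesis genes differed in peak height. Cytosolic ribosomal proteins had 11 of 81 genes (13.6%, 6.98 to 23), with a median mean fold of 5.41, against 8.65 over all members. Of the 11 summits 2 passed IDR 0.05 and 10 were higher in replicate 1, against 50.4% and 54.4% of all matched peaks. RPL21, with 14.8 and 12.1 at 88 bp downstream, was the strongest and RPS14, with 8.93 and 8.12, the next. Translation initiation factors had 8 of 55 (14.5%, 6.50 to 26.7), with a median mean fold of 8.68 and 4 of the 8 passing IDR 0.05. They were led by EIF3I, with a summit 153 bp past its end (19 and 18.5). Among tRNA synthetases 7 of 35 (20%, 8.44 to 36.9) had a summit, with a median mean fold of 7.22, a highest of 9.75 at TARS1, and 2 of the 7 passing IDR 0.05.

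Histone genes differed in layout. They had 18 of 92 genes (19.6%, 12 to 29.1) with a summit, and 12 of the 16 summits at both ends were at histone genes, which are short. H4C8 was the strongest, with 35.5 and 32.2 and the summit 342 bp upstream. The other 17 had mean folds from 4.26 to 9.96, and 6 of the 18 passed IDR 0.05, against 50.4% of all matched peaks. Replicate 2 was the higher at 15 of the 18, and replicate 1 at 3, against 54.4% of all matched peaks higher in replicate 1. H2BC3 had 6.42 and 13.5, the latter a sum over peaks of which the tallest had 7.22. Of the other summits at both ends, GPX1, the glutathione peroxidase gene, had 19.1 and 14.5, and ABHD16B had 17.3 and 11.0. Summits at both ends had a median of 7 other matched summits within 50 kb, against 1 for starts and for ends.

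Other groups had intervals that include the 6.11% of all genes, except olfactory receptors, which were below it. Nuclear receptors had 6 of 46 (13.0%, 4.94 to 26.3), all at starts, and 1 of the 6 passed IDR 0.05, against 50.4% of all matched peaks. This was NR1D1, the clock receptor REV-ERBα, at 900 bp upstream (12.2 and 17.7), followed by the thyroid hormone receptor gene THRA (9.89 and 7.25) and PPARA (7.26 and 7.78), a receptor that governs fatty acid use. Mediator had 5 of 30 (16.7%, 5.64 to 34.7), with MED9 strongest at 28 bp downstream (41.6 and 42.1). ZNF zinc finger genes had 31 of 517 (6%, 4.11 to 8.40), TMEM genes 20 of 233 (8.58%) and SLC transporters other than SLC25 22 of 337 (6.53%). CCNE1, cyclin E1, with 61.6 and 58.4 at 612 bp upstream, was the 1 of 43 cyclin and cyclin-dependent kinase genes with a single-gene summit. The proteasome had 1 of 48, PSMD6 (3.28 and 4.09). HOX genes had 0 of 39 (interval up to 9.03%) and collagens 0 of 44 (up to 8.04%). Olfactory receptors had 1 of 392, OR2AJ1 (20.2 and 18.9).

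The counts fell without a visible break at the limit of 1 kb, though the sets on its sides are unlike. In steps of 250 bp outward from the nearest gene end there were 406, 375, 265 and 202 single-gene summits. Beyond the limit there were 168, 140, 120 and 107 summits up to 2 kb. The counts inside the limit leave out summits at the ends of 2 or more genes, and those outside are of summits at no gene end. Those just inside were at CCR10 (4.46 and 6.31) and SCARF1 (5.71 and 4.83), whose strand was not known. Those just outside were nearest to SLC16A13, at 1003 bp (6.51 and 3.81), and NTNG2, at 1004 bp (11.8 and 13.3).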

How the data were processed

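Peaks were called with MACS2 2.2.6 after trimming with Trim Galore 0.6.5 and alignment with Bowtie2 2.3.5 to hg38, tools and a build named in the submitters' processing notes without settings. Per the file names, each replicate was called alone against both inputs. The authors deposited a fold enrichment (a linear ratio), a −log10 p and a −log10 q per peak. Their matched list, in the 20-column layout of IDR output, gives both replicates' folds and an IDR score, in which 540 stands for an IDR of 0.05. The deposited score ran from 154 to 1000, so the list was not filtered on it. For 17 members in replicate 1 and 8 in replicate 2 the deposited fold adds up the folds of 2 or more merged peaks (the total equals it within 0.001), which raises it above the height of any of them. Read counts per peak were not used here. The labels' read numbers lack an exponent sign and were read with one.

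Gene coordinates came from a RefSeq table of GRCh38.p14, and strands and windows from RefSeq promoter windows of the same build. Summits on Y (33) and other contigs (272) were left out. A summit counted as upstream or inside by the gene's outermost coordinate. Motifs were searched on both strands. The design text names a pair of cell culture samples for the ChIP replicates. Scripts ran in Python 3.11.15 with SciPy 1.17.1 and were tested on simulated data. No p was computed, since peaks are not replicates. Intervals are exact (Clopper-Pearson, 95%) and cover counting error only.

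The members and the 32 gene groups, which are defined by symbol patterns, were chosen with earlier results of these data known. The patterns of proteasome and cyclin genes were narrowed after a first run, because they took in genes that share only a prefix. The named genes are the 10 strongest start and end summits, up to 3 of each group, genes with members at both start and end, those with the largest replicate differences, and those beside the limit. Alternatives were windows of 500 bp and 2 kb, IDR 0.05, 50% overlap of the replicates' intervals, counting non-coding genes, and each replicate's own list.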

Additional observations from a re-analysis of the deposited data

How the results depend on the processing

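Of 46 recomputed values of 7 results, 28 stayed within 1 SD, the exact interval or 1.5 times the count, and 18 did not. Requiring IDR 0.05 left 632 summits, raised the median folds to 13.3 at starts and 13.9 at ends, and the short site share to 39.8%. A window of 500 bp gave 86.8% at starts and a median start fold of 8.42. With 2 kb these were 80.2% and 8.80, with 8.79 at ends. Intervals overlapping by 50% gave medians of 9.03 at starts and 8.78 at ends and 53.6% passing IDR. Counting non-coding genes gave 8.67 at ends. In the list of a single replicate, which holds weaker peaks, there were 1569 to 1758 single-gene summits, with 83.7% to 85.1% at starts, medians of 6.85 to 7.25 at starts and 6.85 to 6.99 at ends, 46.8% to 46.9% of start summits upstream, and a short site in 18.1% to 18.7% of windows. The order of the start and end medians thus changed with the peak set, and the majority at starts did not in any setting run. The cause was not tested. No paired analysis was possible because the inputs that share the ChIP replicates' numbers have no value of their own per peak. Start and end medians come from the same libraries, and their difference within each replicate is given with the medians. Depth per peak is unknown, and strand was unknown for 215 summits.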

Other observations

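The chromosomes differed in how many of their protein-coding genes had a single-gene summit. On chromosome 20 it was 11.7% of 537 genes, on 22 9.09% of 451 and on 17 8.30% of 1169. On X it was 1.53% of 848, on 18 2.96% of 270 and on 4 3.12% of 770, against 6.11% over all. Copy number per chromosome was not measured here, and its part in these shares was not tested.

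In all, 26 genes had 2 or more single-gene summits, and 13 had one at the start and one at the end. At VAMP2, a vesicle fusion protein, the end summit was the taller, with 22.7 and 22.3 against 7.71 and 8.81 at the start. SRXN1, an antioxidant sulfiredoxin, had 15.3 and 13.5 at the end and 8.48 and 8.04 at the start. CARD19 had 3 summits, of which the one 875 bp upstream of the start (33.1 and 40.6) was taller than those 218 bp downstream (10.0 and 8.14) and 699 bp inside the end (9.13 and 6.04). At ANXA11, which encodes annexin A11, the pair was of similar height, with 13.2 and 13.6 at the start and 10.1 and 14.3 at the end.

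The largest differences between the replicates were at TM4SF19 (5.66 and 16.8) and RNF4 (8.37 and 17.7) among start summits, and at FRAT1 (13.5 and 5.54) and GDF15 (4.33 and 9.44) among end summits. The higher value is a sum of merged peaks at TM4SF19, where the tallest had 12.2, and at FRAT1, where it had 9.85. None of these 4 passed IDR 0.05. FRAT1 is the neighbour and relative of FRAT2, and its summit was 781 bp inside its end, much like that of FRAT2 at 712 bp.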
